A study of Mus musculus with 24 samples.

Results

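The regions described here are H3K27ac peaks of mouse erythroleukaemic cells that were called as 1 peak without doxycycline and that overlapped, by at least 1 bp, 2 or more separate H3K27ac peaks after doxycycline. There were 1153 of them among 28902 untreated peaks on assembled chromosomes (3.99%, exact 95% interval 3.77 to 4.22). They are called fragmented peaks below, the treated peaks that overlap them are called pieces, and the stretches between neighbouring pieces are called gaps. They were chosen by the H3K27ac positions of both conditions. The number of pieces, the gap lengths and the length kept are therefore descriptions of what was selected, and nothing is supported with them. H3K4me1, gene positions and promoter sequence were not used by the rule.

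The cells were bone marrow leukaemic cells of the erythroid lineage from the TgSpi1 model (line 763), which overexpress SPI1, also called PU.1, and were kept in culture with EPO (erythropoietin). Both groups carried a doxycycline-inducible short hairpin RNA against Spi1. The untreated group received no doxycycline, and the treated group received it for 48 h. The labels name no culture that received doxycycline but lacked the hairpin, so what the drug, the hairpin and lower SPI1 each contributed cannot be told apart. Of 24 samples in the series, 4 peak lists were used, 1 per mark and condition. Each H3K27ac list joins replicates 1 and 2, and each H3K4me1 list is from replicate 1 alone. Replicate error is thus unknown for each value given, no test between conditions could be made, and all cells came from a single numbered line. The labels do not say whether that line is a clone.

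H3K27ac is an acetylation of histone H3 that marks active promoters and enhancers, and H3K4me1 is a methylation of the same histone that marks enhancers whether active or not. A wide H3K27ac peak often spans several regulatory elements, and at an active promoter the nucleosomes that carry acetylation flank the start site. SPI1 belongs to the ETS transcription factors, directs myeloid and B cell fates, and keeps erythroid precursors immature when it is overexpressed. H3K27ac peaks were read within 1 kb of the annotated ends of marker genes as a check of the cell type. Of 8 erythroid markers, 6 had one in the untreated list (Gata1, Klf1, Epor, Tal1, Gfi1b and Tfrc), and all 8 had one in the treated list, where Slc4a1 and Alas2 were added. None of 5 myeloid markers and none of 3 T cell markers had one in either list. Of 3 B cell markers only Cd79a had one, and all 3 megakaryocyte markers did, in both lists. These few markers do not stand for all genes of a lineage. In longer lists, 22 of 40 myeloid, 7 of 15 T cell and 6 of 15 B cell genes met an untreated H3K27ac peak. There the gene body with 5 kb either side was used.

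The untreated H3K27ac peaks covered 41.5 Mb and the 23341 treated ones 41.2 Mb. The median width was 1003 bp without and 1353 bp with doxycycline, and read depth is unknown. Neighbouring peaks lay at least 197 bp apart in each of the 4 lists, so no gap shorter than 197 bp could be seen.

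A small set of gaps lay on gene starts, and the bases upstream of 6 of those starts are shown to let the gap be read beside its promoter. They are the 3 genes with the longest such gaps and 3 further genes chosen after their values were seen. Each line gives the 250 bases upstream of the annotated start, 5′ to 3′ on the gene's strand, from RefSeq on GRCm38.p6. Capitals mark GAGGAAG, the SPI1 and ETS letters searched, AGATAA, the GATA letters, or CACCC, the KLF letters, each on either strand. Tgif1 lies at chr17:70849791-70850040 (minus strand), Arrdc2 at chr8:70839721-70839970 (minus), Calr at chr8:84846932-84847181 (minus), Egln1 at chr8:124949255-124949504 (minus), Cnr2 at chr4:135911430-135911679 (plus) and Zeb2 at chr2:45113254-45113503 (minus).
Tgif1: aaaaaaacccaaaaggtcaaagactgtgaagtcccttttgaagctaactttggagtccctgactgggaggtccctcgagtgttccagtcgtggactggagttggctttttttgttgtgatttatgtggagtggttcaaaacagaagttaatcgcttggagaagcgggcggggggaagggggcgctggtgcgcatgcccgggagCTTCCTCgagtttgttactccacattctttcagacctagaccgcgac
Arrdc2: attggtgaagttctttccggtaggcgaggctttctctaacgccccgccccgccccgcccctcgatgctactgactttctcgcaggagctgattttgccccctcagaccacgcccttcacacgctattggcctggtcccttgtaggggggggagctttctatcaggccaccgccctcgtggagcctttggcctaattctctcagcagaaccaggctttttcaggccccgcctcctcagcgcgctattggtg
Calr: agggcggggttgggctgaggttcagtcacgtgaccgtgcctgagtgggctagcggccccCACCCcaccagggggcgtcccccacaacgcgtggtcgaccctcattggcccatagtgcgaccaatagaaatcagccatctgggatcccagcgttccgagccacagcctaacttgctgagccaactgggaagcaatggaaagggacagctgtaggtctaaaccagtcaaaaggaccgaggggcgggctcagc
Egln1: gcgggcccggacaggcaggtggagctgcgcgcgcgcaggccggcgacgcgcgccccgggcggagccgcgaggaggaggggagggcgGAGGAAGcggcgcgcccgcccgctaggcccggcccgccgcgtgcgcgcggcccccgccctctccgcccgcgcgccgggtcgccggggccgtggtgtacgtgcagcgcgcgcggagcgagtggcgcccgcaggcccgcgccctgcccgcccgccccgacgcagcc
Cnr2: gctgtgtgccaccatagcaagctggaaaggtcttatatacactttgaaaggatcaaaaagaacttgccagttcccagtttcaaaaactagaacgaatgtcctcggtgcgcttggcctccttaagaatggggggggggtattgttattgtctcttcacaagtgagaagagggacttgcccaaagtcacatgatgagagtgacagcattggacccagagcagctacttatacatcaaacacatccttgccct
Zeb2: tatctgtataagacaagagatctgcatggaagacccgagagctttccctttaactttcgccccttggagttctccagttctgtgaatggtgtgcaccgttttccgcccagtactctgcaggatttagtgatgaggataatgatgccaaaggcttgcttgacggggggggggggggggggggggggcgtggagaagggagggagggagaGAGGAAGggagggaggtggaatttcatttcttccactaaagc
Tgif1 and Zeb2 hold GAGGAAG close to the start, Tgif1 on the opposite strand, and Egln1 holds it farther upstream. Calr holds CACCC, and Arrdc2 and Cnr2 hold none of the 3 motifs. The 250 bases lay wholly in the gap for Tgif1, Arrdc2 and Cnr2, and by 217 bases for Calr, 245 for Zeb2 and 94 for Egln1. The marked letters of Tgif1, Zeb2 and Calr lay inside the gap, and the GAGGAAG of Egln1 lay outside it.

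A gap also lay on a microRNA gene. Of 1005 hairpins in the RefSeq table, 6 lay in fragmented peaks, 5 of them in pieces and Mir101b in a gap. The peak at chr19:29134799-29136201, in Rcl1, was 1403 bp wide, and its gap of 347 bp held both mature arms. They are shown 5′ to 3′ with the seed, bases 2 to 8, in capitals, were taken from RefSeq on GRCm38.p6, and were chosen after the position was seen.
miR-101b-5p: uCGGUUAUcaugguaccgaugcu
miR-101b-3p: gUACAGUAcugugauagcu
The arms lie at chr19:29135302-29135324 and chr19:29135338-29135356 on the plus strand. Their seeds differ, and no miRNA level was measured in these data.

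Most fragmented peaks were divided once. Exactly 2 pieces were found in 1006 (87.3%), 3 in 124, 4 in 18, 5 in 4 and 6 in 1. Fragmented peaks had a median width of 2903 bp (quartiles 1803 and 4553), beside 1353 bp for the 19821 untreated peaks with exactly 1 treated partner and 453 bp for the 7928 with none. The share of untreated peaks that were fragmented was 0.521% under 1 kb, 3.27% from 1 to 2 kb, 6.54% from 2 to 3 kb, 14.3% from 3 to 5 kb and 32.8% (243 of 741) at 5 kb and over. In the mirror case, 2514 of 23341 treated peaks (10.8%) overlapped 2 or more untreated peaks. The lists differ in peak number: with equal numbers 1669 treated peaks were fused and 1147 untreated ones fragmented, and with peaks within 500 bp joined in both lists 588 and 413. Of the fragmented peaks, 299 (25.9%) had a piece that also overlapped another untreated peak.

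**Figure D1:**
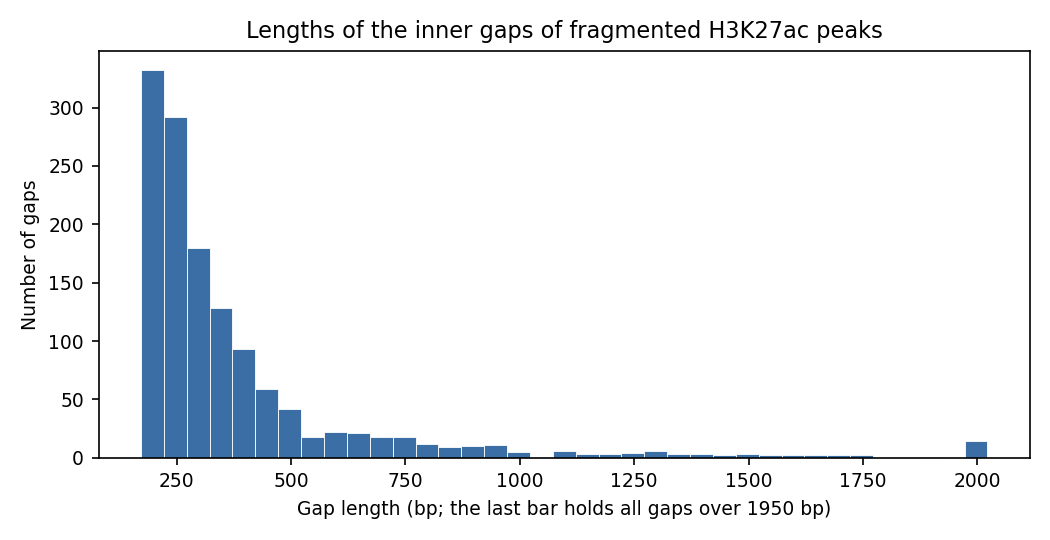
The histogram shows the lengths of the 1329 gaps in bp (x axis, bars 50 bp wide) and the number of gaps (y axis). The leftmost bar, at 197 bp, holds 332 gaps, and the last bar collects the longest gaps.

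The gaps were mostly narrow, as the histogram of gap lengths shows. The 1329 gaps had a median of 297 bp (quartiles 247 and 397), with the longest at 5397 bp. The shortest length the lists can show, 197 bp, was that of 332 gaps (25.0%). A further 59.7% were over 200 and up to 500 bp, 10.8% over 500 and up to 1000 bp and 4.44% over 1000 bp. The pieces were separate calls throughout, and for most regions little length lay between them. Gaps of the mirror case numbered 2945, had a median of 247 bp, and were 197 bp long in 33.7%.

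Of the 4149 kb that fragmented peaks covered without doxycycline, 77.9% lay inside pieces, 12.6% in gaps and 9.57% beyond the outermost pieces. The median fragmented peak kept 78.2% of its length (95% interval of the median 76.8 to 79.6), and the median peak with 1 partner 96.7%. Pieces also reached past the edges of the untreated peak by 840 kb in sum, so their summed length was 4070 kb. In both sums a piece shared by fragmented peaks counts for each of them, and the distinct pieces summed to 4035 kb. In 423 fragmented peaks (36.7%) the pieces were together longer than the peak they came from. Only 113 (9.80%) kept less than 50% of their length. Peaks just inside the rule were common: in 56 the second-largest piece lay inside by 3 bp or less, and in 128 by 53 bp or less. Just outside it were 73 peaks with 1 partner that had a further treated peak within 50 bp of an edge.

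The longest gap lay near Heg1, a transmembrane receptor gene known from endothelium. The untreated peak at chr16:33774249-33788251 was 14003 bp wide and lay 2673 bp from the gene. After doxycycline a piece of 603 bp and one of 6003 bp remained, with 5397 bp between them. H3K4me1 covered all 5397 bp of that gap in both lists.

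Tec, a cytoplasmic tyrosine kinase gene of blood cells, was among the most divided of the regions with large summed gaps. Its peak of 10353 bp (chr5:72843399-72853751) overlapped 5 pieces, the widest 1303 bp, with gaps of 747, 2747, 397 and 847 bp. Pieces covered 28.6% of it. At Grk2, a kinase gene that acts on G protein-coupled receptors, 2 pieces of 1203 bp each were left of 8553 bp (chr19:4297999-4306551), and the gap was 4197 bp. One piece held the higher-coordinate end of Grk2. In both genes H3K4me1 covered the whole of each gap with and without doxycycline.

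The other regions with the largest summed gaps lay in genes of varied roles. E2f8, a repressive E2F factor gene of the cell cycle, had 4 pieces in 9303 bp (chr7:48858899-48868201) and a largest gap of 2747 bp. A gap of 697 bp in the same peak held the lower-coordinate end of E2f8, which is not its start. Tpst2, which encodes a tyrosylprotein sulfotransferase, had 4 pieces and 3091 bp of gaps in 10053 bp. Diaph1, which encodes an actin-nucleating formin, had 5 pieces and 2738 bp of gaps in 6803 bp. Rhoh, a GTPase gene of blood cells, had 4 pieces and 2591 bp of gaps in 7103 bp, and 1 of the pieces lay inside by only 3 bp. The peak over Stk16 and its neighbours Glb1l and Tuba4a kept 73.6% of 11353 bp in spite of gaps of 2247 and 697 bp.

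Ptpre, a receptor-type tyrosine phosphatase gene, had the only gap over 500 bp with less H3K4me1 after doxycycline. The gap of 2397 bp was wholly inside untreated H3K4me1 and by 2000 bp inside treated H3K4me1. Over the peak of 10253 bp, H3K4me1 was 1 peak without and 2 with doxycycline.

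The most pieces, 6, were found at Ptger3, a prostaglandin E2 receptor gene. That peak of 12653 bp (chr3:157566749-157579401) had gaps of 197, 247, 497, 497 and 597 bp and kept 83.9%. Ttc27 and Jak1, the latter a kinase gene of cytokine receptors, had 5 pieces each, with no gap over 447 bp at Ttc27 and none over 347 bp at Jak1. A piece at Jak1 was 3 bp wide. Of the 5 regions with most pieces, Tec and Diaph1 were also among the 10 with the largest summed gap, and Ptger3, Ttc27 and Jak1 were not. Ttc27 and Jak1 were no longer fragmented when treated peaks within 500 bp were joined.

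**Figure D2:**
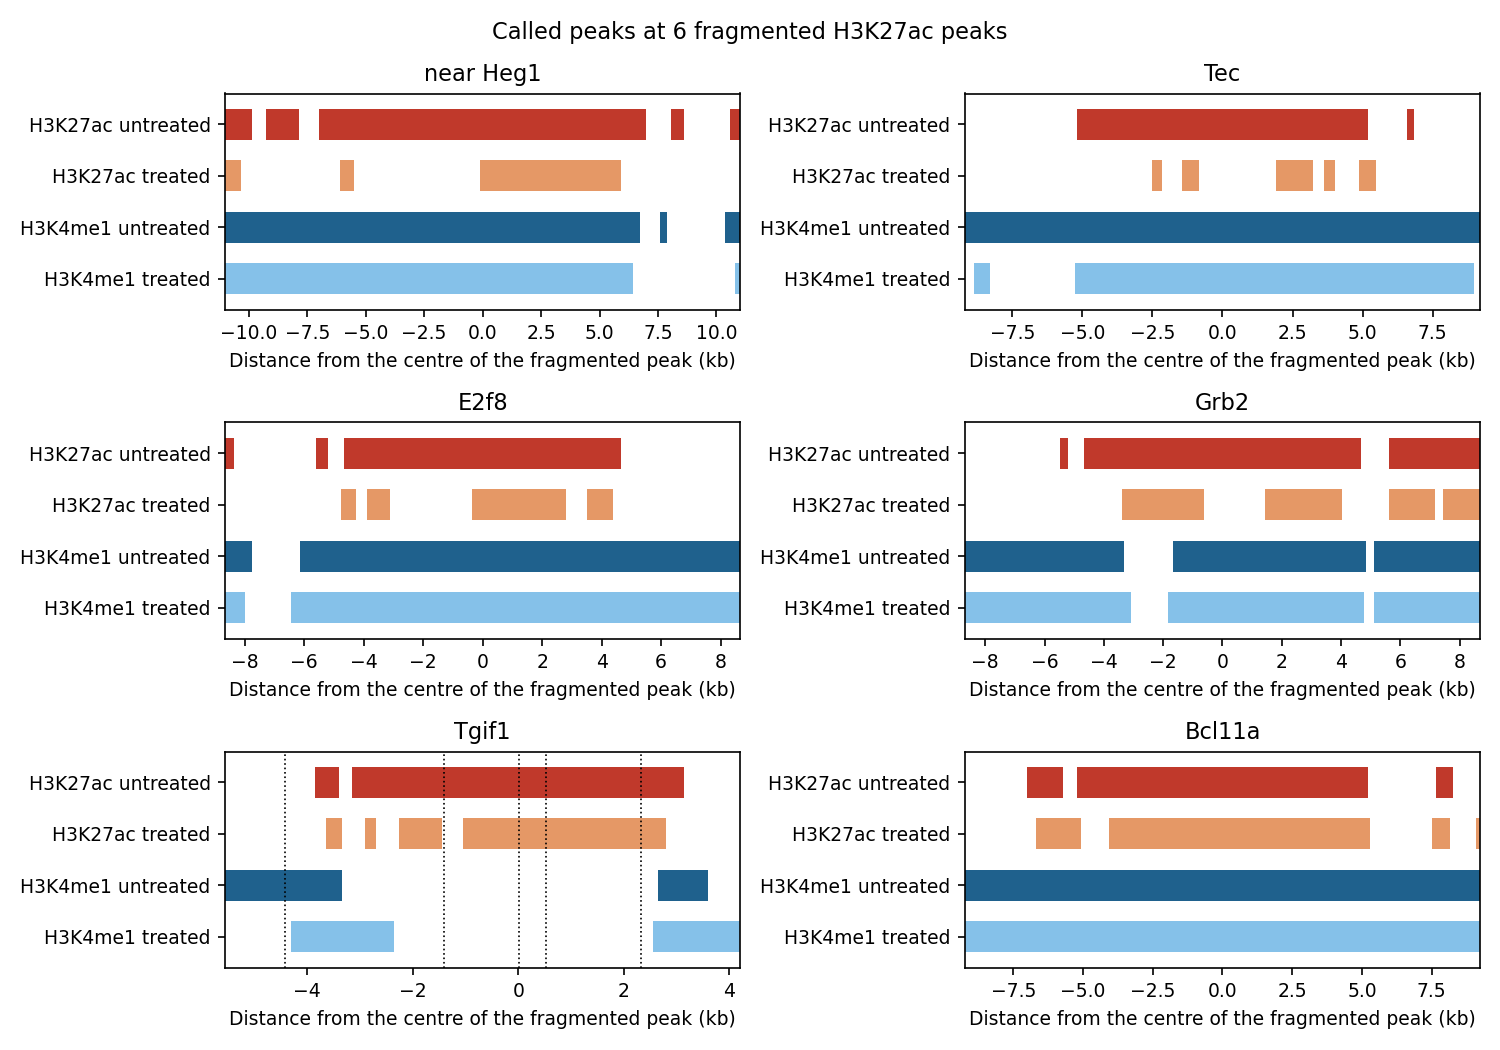
Called peaks are drawn as bars at 6 fragmented peaks, with the distance from the centre of the fragmented peak in kb on the x axis and the 4 lists in rows. Dotted lines are gene starts of the table used. H3K4me1 bars run across the H3K27ac gaps of the Heg1, Tec, E2f8, Grb2 and Bcl11a regions, and at Tgif1 a gap on a gene start holds no H3K4me1 bar. Most of the Tgif1 peak outside that gap holds none either.

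H3K4me1 mostly stayed continuous where H3K27ac was interrupted. Untreated H3K4me1 peaks covered 96.1% of gap bases and treated ones 97.4%. Of the 1329 gaps, 1229 (92.5%) lay wholly inside an untreated and 1258 (94.7%) wholly inside a treated H3K4me1 peak. No gap that was wholly covered without doxycycline was without H3K4me1 after it, and 8 gaps went the other way. The 203 gaps over 500 bp had 99.8% of their bases inside H3K4me1 in each list. The kept parts of the same regions had 85.8% of their bases inside H3K4me1 without and 89.1% with doxycycline. Cover this high was not particular to the gaps. Untreated H3K27ac peaks with no treated partner had 98.4% and 94.8% of their bases inside H3K4me1, and gaps of the mirror case 82.9% and 86.6%. The H3K4me1 lists were also far broader, at 184 Mb without and 195 Mb with doxycycline, beside 41.5 and 41.2 Mb for H3K27ac. H3K4me1 of each list was high around the gaps as well, as the plot of peak cover by distance shows.

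Over whole fragmented peaks H3K4me1 covered 88.3% of bases without and 91.0% with doxycycline, beside 77.4% and 82.2% for peaks with 1 partner. A single H3K4me1 peak in each list was found at 785 (68.1%). H3K4me1 was shorter by at least 500 bp with doxycycline at 8 (0.694%), beside 0.709% of all untreated H3K27ac peaks. It was longer by at least 500 bp at 89 (7.72%), beside 3.45%. Fragmented peaks were wider than the rest, and among peaks of at least 2 kb the longer share was 10.5% of 818 fragmented peaks and 11.1% of 5899 with 1 partner. The H3K4me1 peaks that met a fragmented H3K27ac peak overlapped 2 or more treated H3K4me1 peaks in 169 of 1489 (11.3%), beside 3.84% of all untreated H3K4me1 peaks. Their median width was 4753 bp, beside 903 bp for the whole list, and the part of width in that share was not tested.

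**Figure D3:**
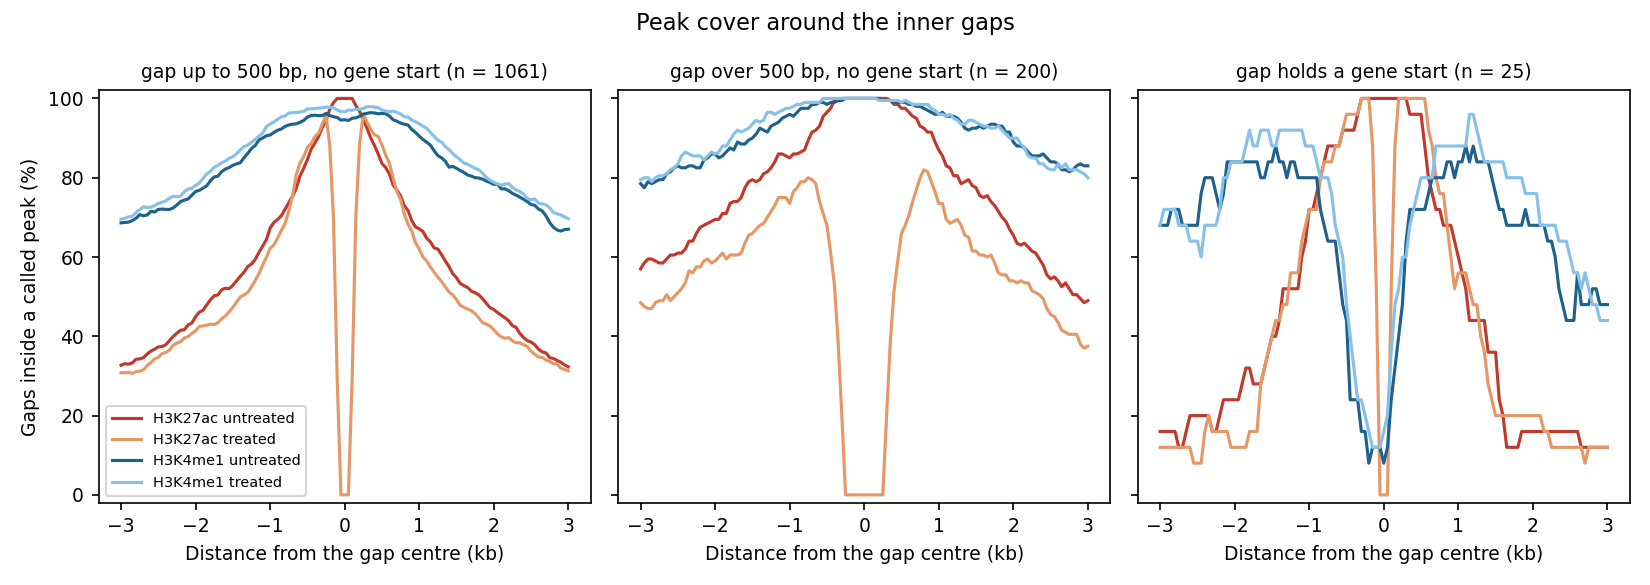
The percentage of gaps that lie inside a called peak (y axis) is plotted against the distance from the gap centre in kb (x axis) for each of the 4 lists and 3 classes of gap. H3K4me1 is at 94.6% or more at the centre of gaps without a gene start and at 8% (untreated) and 16% (treated) at the centre of the 25 gaps that hold one.

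The share of peaks near a gene start was lower among fragmented peaks than among peaks with 1 partner in 4 of 5 width classes, with intervals that did not overlap. Starts were known for 17491 of 21883 coding genes, so shares near a start are low by the missing ones, and chromosome 18 was left out. Within 1 kb of a start lay 360 of 1120 fragmented peaks (32.1%, exact 95% interval 29.4 to 35.0), 41.2% of peaks with 1 partner and 31.1% of all untreated H3K27ac peaks, whose share lies inside the interval of the fragmented ones. Under 1 kb of width the shares were 5.56% and 25.2%, from 1 to 2 kb 14.6% and 46.9%, from 2 to 3 kb 29.6% and 53.4%, and from 3 to 5 kb 39.0% and 56.8%. At 5 kb and over they were 52.8% and 53.0%, with overlapping intervals. Inside a gene and over 1 kb from its ends lay 43.7% of fragmented peaks and 33.2% of peaks with 1 partner, and outside genes 19.4% and 19.7%. These intervals cover counting error over peaks and not error between cultures.

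**Figure D4:**
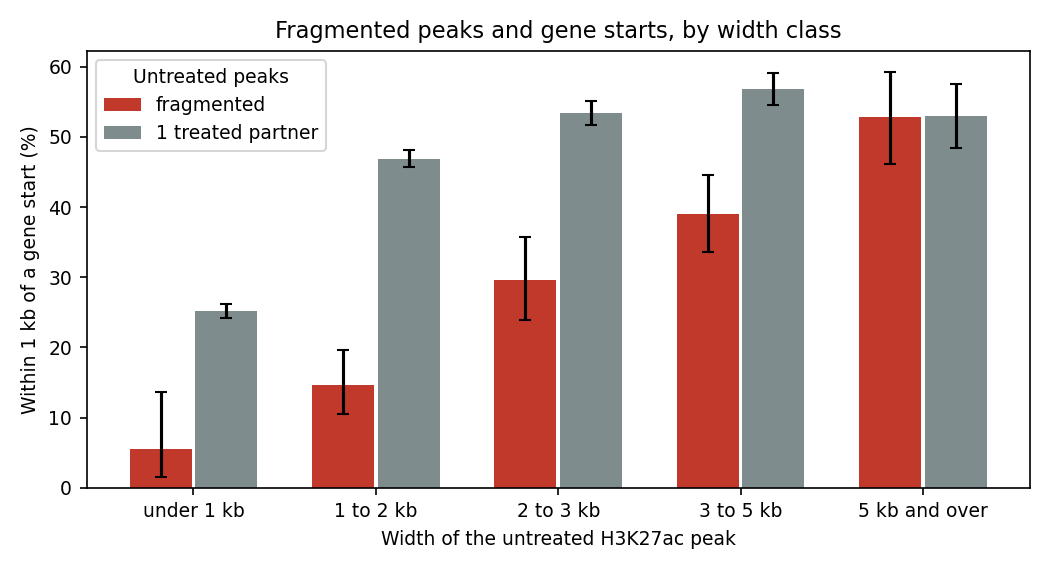
Bars give the percentage of peaks within 1 kb of a gene start (y axis) by width class of the untreated peak (x axis), for fragmented peaks and for peaks with 1 treated partner. Error bars are exact 95% binomial intervals over peaks, and they overlap only in the class of 5 kb and over.

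The gene starts inside fragmented peaks mostly kept H3K27ac. Of 452 starts, 420 (92.9%) lay in a piece, 28 (6.19%) in a gap and 4 (0.885%) beyond the outermost piece. Pieces held 77.9% of the length of fragmented peaks, and the kept share of starts in peaks with 1 partner was not measured. The 28 starts fell in 25 of 1286 gaps (1.94%), all narrow, with a median of 197 bp and the longest at 397 bp. In the mirror case 9.28% of gaps held a start.

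H3K4me1 was scarce in these 25 gaps. It covered 12.9% of their bases without and 17.0% with doxycycline, beside 97.1% and 98.3% in the 1261 gaps without a start. No untreated H3K4me1 at all was found in 21 of the 25. H3K4me1 cover at starts in pieces, or in peaks that were not fragmented, was not measured. Whether low cover was particular to starts in gaps was therefore not tested. Among the 66 gaps with no untreated H3K4me1, 37 (56.1%) lay within 500 bp of a start, beside 28 of 1188 wholly covered gaps (2.36%).

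The longest gap on a start was at Tgif1, a homeobox co-repressor gene of TGF-beta signalling. Its peak at chr17:70848049-70854351 was 6303 bp wide, and a gap of 397 bp held 1 of its starts and no H3K4me1 in either list. Most of that peak lacked H3K4me1 as well: 503 bp were covered without and 1406 bp with doxycycline. Gaps of 347 bp lay on starts of Arrdc2, an arrestin-domain gene, and of Cnr2, the cannabinoid receptor 2 gene of immune cells. The Cnr2 gap was wholly inside H3K4me1 in both lists, and the Arrdc2 gap held none without and 50 bp with doxycycline. Gaps of 297 bp lay on starts of Calr, the calreticulin gene, and of Egln1, an oxygen-sensing prolyl hydroxylase gene, with no H3K4me1 in either list. A gap of 297 bp on a start of Zeb2, a zinc-finger repressor gene, was wholly inside untreated H3K4me1 and by 250 bp inside treated H3K4me1.

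In the 250 bases upstream, GAGGAAG on either strand was found at 5 of the 28 starts in gaps (17.9%, exact 95% interval 6.06 to 36.9), 42 of the 420 starts in pieces and 10.3% of all 21237 promoters. AGATAA was found at 0 of 28, which allows up to 12.3% by the exact interval, at 5.95% of starts in pieces and at 8.81% of all. CACCC was found at 42.9%, 61.4% and 54.2%. Starts in untreated peaks with no treated partner held GAGGAAG at 25 of 141 (17.7%), AGATAA at 9.93% and CACCC at 65.2%. Those in peaks with 1 partner held them at 10.1%, 5.20% and 56.9%. The median GC content was 58.4% for starts in gaps, 61.8% for starts in pieces and 55.6% over all promoters. Zeb2, Mast2 and Spa17 have 2 of the 28 starts each, with windows that overlap. The GAGGAAG matches were at Tgif1, Egln1, Shkbp1 and Zeb2, and the same copy was counted at both Zeb2 starts. The same CACCC copy was counted at both Spa17 starts. The exact intervals treat the 28 starts as independent, which these pairs are not. A match says only that the letters are there.

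Fragmented peaks were assigned to coding genes by the gene body with 5 kb either side. Of 12028 genes that met any untreated H3K27ac peak, 1127 (9.37%) met a fragmented one and 2438 (20.3%) a fused one, a treated peak over 2 or more untreated peaks. The share was 1.00% of genes with under 2 kb of untreated H3K27ac and 77.9% of genes with 20 kb and over. The fragmented count of each list is therefore set beside all genes in the same classes of that length. Counts of fused peaks were not matched for length. The lists were chosen with earlier results known.

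**Figure D5:**
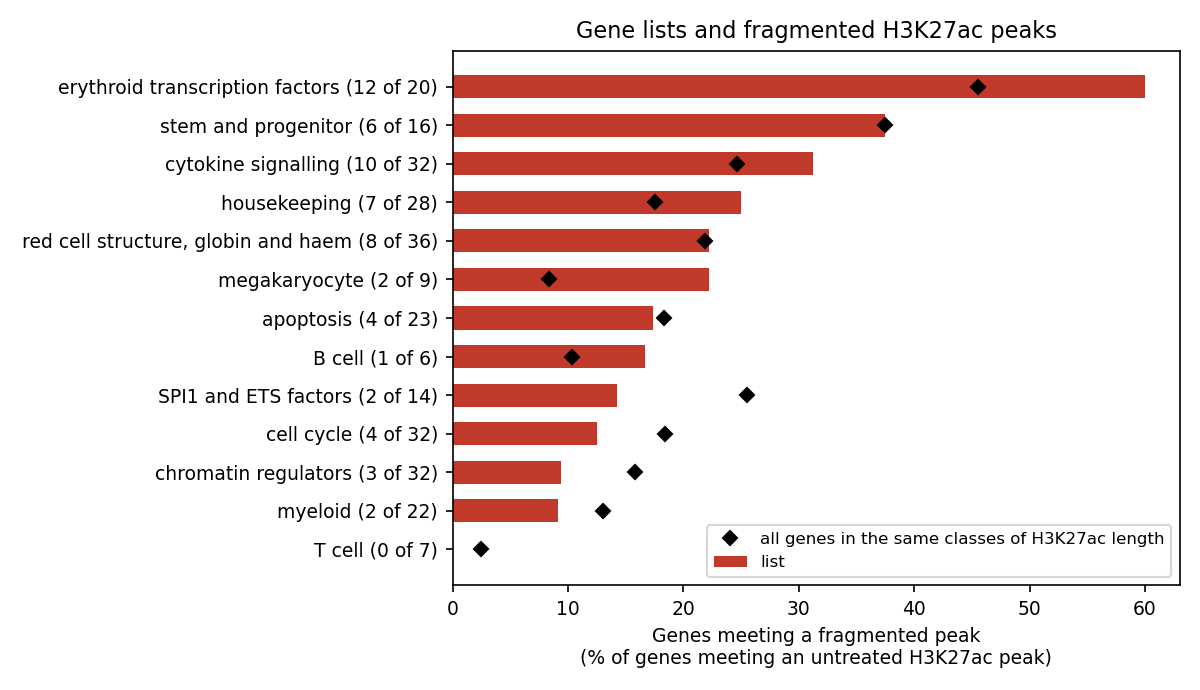
Bars give the percentage of each gene list's acetylated genes that met a fragmented peak (x axis), with the counts in the labels, and diamonds give the percentage for all genes in the same classes of H3K27ac length. The erythroid transcription factors have the longest bar, at 60% beside 45.5%.

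Of 20 erythroid transcription factor genes, 12 (60.0%) met a fragmented peak, beside 45.5% for all genes of like length. A fused one was met by 13, a count not matched for length. The median untreated H3K27ac was 11.9 kb in this list and 2.70 kb over all acetylated genes. The 12 genes were Gata1, Klf1, Gfi1b, Lmo2, Ldb1, Zfpm1, Zbtb7a, Klf3, Bach1, Foxo3, Bcl11a and Mafg. Their 15 fragmented peaks were little reduced: they kept a median of 90.5% and the median of their largest gaps was 247 bp. At Gata1, the master regulator of the lineage, 197 bp were missing between pieces of a 10453 bp peak. At Lmo2, a bridging subunit of the GATA1 complex, 197 bp of 8153 bp were missing, and at its partner Ldb1 247 bp of 10203 bp. Klf1, an activator of adult globin genes, had a gap of 247 bp in 2603 bp. Zfpm1, which encodes the GATA1 cofactor FOG1, had 3 fragmented peaks of 1703, 4503 and 10553 bp with a gap of 247 bp in each, and the pieces of the widest reached 16700 bp beyond its edges. In 13 of the 15 a piece reached beyond an edge, beside 800 of all 1153 (69.4%), and 10 of the 15 were not trimmed at either edge, beside 400 of all 1153 (34.7%). The rule used these positions, so the shares only describe what was selected. Width was not matched: the 15 had a median of 4503 bp, beside 2903 bp for all fragmented peaks. The 15 are not independent, as Zfpm1 alone gave 3. Bcl11a, a repressor of fetal globin genes, had the longest gap of the list, 997 bp in 10453 bp. Its smaller piece lay inside by 153 of 1603 bp, and the region was not fragmented when at least 50% of a piece had to lie inside.

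Of 32 genes of cytokine signalling, 10 (31.3%) met a fragmented peak, beside 24.7% for genes of like length. Their 11 fragmented peaks kept a median of 72.8%, had a median largest gap of 597 bp, and 1 of 11 was untrimmed. The largest gap was 247 to 347 bp in 5 of the 11. At Grb2, an adaptor of receptor tyrosine kinases, a 9353 bp peak (chr11:115705849-115715201) gave pieces of 2753 and 2603 bp with 2047 bp between them. A peak over the lower-coordinate end of Stat3, within 5 kb of Stat5a, had a gap of 1397 bp in 4203 bp that lay inside Stat3; both genes encode transcription factors that cytokine receptors activate. Its smaller piece lay inside by 53 bp, and the region was not fragmented under an overlap of at least 100 bp or with at least 50% of a piece inside. Stat5b had 3 pieces in 8803 bp, with a largest gap of 747 bp. Inpp5d, the SHIP1 lipid phosphatase gene, had a gap of 897 bp in 13653 bp and one of 697 bp in 2403 bp. Gab2, a docking protein gene, had a gap of 597 bp in 3803 bp. Pim1, a kinase gene induced by STAT5, had 247 bp in 13253 bp. Gaps over 500 bp were met by 6 of the 32 genes of this list, of which Stat3 and Stat5a share 1 peak, and by 217 of all 12028 acetylated genes (1.80%). They were also met by 3 of 16 stem and progenitor genes, 3 of 20 erythroid transcription factor genes, 2 of 14 ETS genes and 2 of 9 megakaryocyte genes. The counts were 2 of 22 myeloid, 2 of 23 apoptosis, 2 of 32 cell cycle and 1 of 32 chromatin regulator genes. They were 1 of 28 housekeeping genes, 1 of 36 red cell structure, globin and haem genes, 0 of 6 B cell and 0 of 7 T cell genes. The megakaryocyte gene Gp1ba and the housekeeping gene Pfn1 share 1 of these peaks, and Etv6 and Cdk6 count in 2 lists each. H3K27ac length was not matched in these counts.

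Of 14 acetylated genes of SPI1 and its ETS relatives, 2 (14.3%) met a fragmented peak, beside 25.5% for genes of like length. Spi1 was not among them. Elf2, an ETS factor gene, kept 64.1% of 6103 bp in 3 pieces, and Etv6, an ETS repressor gene, kept 53.0% of 8503 bp around a gap of 1647 bp. Of 22 acetylated myeloid genes 2 (9.09%) met one, beside 13.1%. A peak of 7553 bp at Man2a2 and within 5 kb of Fes, a myeloid tyrosine kinase gene, had gaps of 2397 and 397 bp and kept 38.5%. Coro1a, a leukocyte actin-binding protein gene, kept 55.9% of 4753 bp around a gap of 747 bp. These 4 regions lost more than the median fragmented peak, and each list holds only 2.

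Of 16 acetylated stem and progenitor genes, 6 (37.5%) met a fragmented peak, as did 37.5% of genes of like length. They included Etv6, which also counts among the ETS genes, and spanned a wide range. At Gata2, a progenitor GATA factor gene, 97.9% of 16803 bp was kept and the gap was 197 bp. At Tcf12, an E protein gene, a gap of 1347 bp split 4403 bp. At Cdk6, a cyclin-dependent kinase gene that is also in the cell cycle list, 4 pieces kept 59.2% of 5003 bp.

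Red cell structure, globin and haem genes met a fragmented peak in 8 of 36 (22.2%), beside 21.9%. They met a fused one in 17, a count not matched for length, and their median untreated H3K27ac was 6.03 kb. Alad, an enzyme gene of haem synthesis, kept 94.6% of 8203 bp. Sptb, the erythroid beta spectrin gene, kept 35.0% of a 1303 bp peak, with 850 bp of its pieces beyond the edges. The smaller overlap at Sptb was 53 bp, and the region was not fragmented under an overlap of at least 100 bp or with at least 50% of a piece inside. Rhag, a Rh blood group complex gene, kept 57.3% of 2103 bp and was not fragmented when peaks had to be at least 200 bp wide. Housekeeping genes met one in 7 of 28 (25.0%), beside 17.6%, and the 7 peaks kept a median of 88.3%. Apoptosis genes met one in 4 of 23 (17.4%), beside 18.3%, among them Cflar, a caspase-8 inhibitor gene, with a gap of 897 bp in 8353 bp, and Bid, a BH3-only gene, with 547 and 297 bp in 4553 bp. Cell cycle genes met one in 4 of 32 (12.5%), beside 18.4%, and chromatin regulators in 3 of 32 (9.38%), beside 15.8%. Hdac7, a class IIa deacetylase gene, had a gap of 1247 bp in 13303 bp. Of 9 acetylated megakaryocyte genes 2 met one (22.2%, beside 8.34%), of 6 B cell genes 1 (16.7%, beside 10.4%) and of 7 T cell genes 0 (beside 2.45%). The 2 megakaryocyte genes were Gp5 and Gp1ba, and the peak met by Gp1ba was the same one that the housekeeping gene Pfn1 met. Small lists move by many percent with 1 gene, and no list was tested against the other genes.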

How the data were processed

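Peak lists of 4 groups were analysed: 2 marks, H3K27ac and H3K4me1, in cultures given doxycycline for 48 h or none. Groups came from the sample titles. The other samples were not analysed here. Per the submitters' processing notes, bcl2fastq 2.17.1.14 and BWA were used with mm10. How peaks were called, and how 2 H3K27ac replicates became 1 list, is not given in the sources used here. A list that holds only stretches found in both replicates could split a peak where 1 replicate dips, and this could not be settled. The deposited H3K27ac lists give positions and widths in bp on a grid of 50 bp. The deposited H3K4me1 lists also hold a score per peak by the authors, used only to rank peaks, and a column in the range of a p-value, deposited without a name and not used here. Peak height and read depth are unknown, and deeper sequencing can give more, wider or joined peaks.

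Peaks on assembled chromosomes were kept (28902 untreated and 23341 treated H3K27ac). Overlaps were found in Python 3.11.15 (scipy 1.17.1, pandas 2.3.3, numpy 2.4.6), bedtools 2.31.1 counted the same 1153 regions, and matplotlib 3.10.9 drew the figures. The calculation was tested on simulated data in which 200 peaks were cut at known places. Gene ends came from a RefSeq table on GRCm38.p6 (mm10), and gene starts from its promoter table, which lists none for chromosome 18 here. Intervals of shares are 95% Clopper-Pearson (exact) and count peaks, so they leave out error between cultures. Medians carry intervals from order statistics.

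Named regions were the 10 with the largest summed gap, the 5 with most pieces, the 10 with the largest gap holding a gene start or end, and per gene list the 2 with the largest summed gap; the text describes a part of these. Other genes with values were chosen after their values were seen. The regions, gene lists, comparisons and rules were chosen with earlier results of these data known. Symbols Lnk, Ighm and Trbc1 had no match. Alternatives were stricter overlaps, joined peaks, peaks of at least 200 bp, equal peak numbers, autosomes alone, the better 50% of each H3K4me1 list, other windows and either gene end.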

Additional observations from a re-analysis of the deposited data

How the results depend on the processing

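No paired analysis was possible because each condition has 1 list per mark, and the H3K27ac lists join both replicates, so no replicate could be left out. Joining treated peaks within 200 bp moved the median gap to 347 bp, the median length kept to 76.2%, gap bases in H3K4me1 to 97.4% (untreated) and 98.5% (treated), and gaps holding a gene start to 1.24%; 877 regions then stayed fragmented. Joining treated peaks within 500 bp left 189 fragmented peaks, with a median gap of 797 bp, 70.0% kept, 99.8% of gap bases in H3K4me1 in each list, 39.0% near a gene start and 0% of gaps holding a start. Joining peaks within 500 bp in both lists gave 413 fragmented and 588 fused peaks, a median gap of 897 bp, 69.7% kept, 98.7% and 99.2% of gap bases in H3K4me1, 45.5% near a start and 0.454% of gaps holding one. With equal peak numbers 1669 fused peaks and 1147 fragmented ones were counted. Near a start lay 35.7% when at least 50% of a piece had to lie inside, 41.5% with a window of 5 kb, and 36.9% with either annotated gene end, a setting added after seeing the data that put an end in 3.61% of gaps. Joining peaks removes narrow gaps by construction; the cause of the other shifts was not tested. Of the 39 regions the rule names, 30 stayed fragmented with treated peaks joined within 500 bp. Unknown depth limits each count.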

Other observations

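Some genes held several fragmented peaks within 5 kb of the gene body, and these genes were chosen after their values were seen. Their counts were not set against the number or length of untreated H3K27ac peaks at each gene. Of all acetylated genes, 1.00% with under 2 kb of untreated H3K27ac and 77.9% with 20 kb and over met at least 1 fragmented peak. Garem1, an adaptor gene of growth factor receptors, Nfia, a nuclear factor I transcription factor gene, and Vps13c, a lipid transfer protein gene, met 4 each. The gaps summed to 938 bp at Garem1, 1585 bp at Nfia and 2035 bp at Vps13c. A further 12 genes met 3 each, among them Zfpm1 with 741 bp of gaps in sum, Dapp1, an adaptor gene of B cell receptor signalling, with 2088 bp, Gse1 with 2191 bp and Rreb1, a zinc-finger gene of RAS signalling, with 1635 bp. The widest fragmented peak of all, 17253 bp, was 1 of the 3 at Dapp1.

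By chromosome, fragmented peaks were 2.73% of the untreated peaks on chromosome 16 and 5.94% on chromosome X, the lowest and highest apart from chromosome Y with 0 of 2.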
